A study of Capra hircus with 24 samples.

Results

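Immediate early response genes are genes whose transcription starts within minutes of a stimulus and needs no newly made protein. The account follows 32 such or related genes through dermal papilla cells of cashmere goats. They are the AP-1 subunits FOS, FOSB, FOSL1, FOSL2, JUN, JUNB and JUND with their relatives ATF3 and MAFF, the EGR and NR4A factors, KLF factors, MYC, SRF, the DUSP phosphatases, and ZFP36, BTG2, IER2, IER3, IER5, SGK1 and ARC. The genes were chosen by symbol, and a gene was kept when its value was 1 or more in at least 3 libraries. All 32 listed genes have a value in the deposited tables and passed, among 13049 of 20326 genes that passed the same filter. For 31 of them the value was 1 or more in all 24 libraries, and ARC reached it in 3.

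The dermal papilla is a cluster of fibroblast-like cells at the base of the hair follicle that signals to the epithelium growing the hair. In cashmere goats the coarse guard hair grows from primary follicles and the fine cashmere from secondary ones. RNA sequencing was done on papilla cells of both follicle types, taken in June, labelled early anagen (the growing phase of the hair cycle), and in October, labelled anagen, from animals marked F and M and written here as females and males. Each of the 8 combinations of follicle type, month and sex has 3 libraries, called biological replicates, so that n = 3 in every group below. No treatment or allele is named in the labels, and no group serves as an untreated control. The labels give no ages, do not say whether the 3 libraries of a group came from separate animals or cultures or whether animals were pooled, and do not say whether cells were cultured or how long they were handled before lysis. The p-values therefore measure the spread between these libraries only, and month, hair cycle stage, season and collection cannot be told apart.

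In resting cells most of these genes are transcribed at a low rate. Growth factors, stretch, wounding and stress switch them on through the ERK and p38 kinases, which act on SRF with its ELK partners and on CREB bound at their promoters, and tissue dissociation is a well-known trigger. The response is self-limiting: DUSP phosphatases switch the kinases off, ZFP36 marks short-lived messenger RNAs for decay, and FOS and EGR1 transcripts are themselves lost quickly.

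Values are the authors' normalised expression signal, and differences are log2 differences of value + 1. Since a per-length scale is not stated, levels are compared between groups and not between genes. Values of the 13049 genes correlated at 0.993 to 0.997 (Pearson's r on the log2 scale, across genes) between libraries of a group and at 0.954 to 0.992 between groups. Every pair within a group thus correlated more closely than any pair between groups, and outlying libraries were not tested for. All 8 fibroblast markers searched, COL1A1 and VIM among them, were at 1 or more in every library, as were 11 of the 19 papilla markers with a value in the tables, including RSPO3, VCAN, BMP4, TBX18 and LEF1. The papilla markers CORIN, PROM1 and HHIP were below 1 in every library. Of the remaining papilla markers, NOG and CRABP1 reached 1 in 20 libraries each, SOX2 in 15, ALPL in 3 and SOX18 in 1. All 9 sheath and smooth muscle markers were at 1 or more in every library, with ACTA2 at 4316 to 7969 and TAGLN at 4222 to 6538. Of 7 immune cell markers 4 were below 1 in every library, and PTPRC, which marks all leukocytes, did not exceed 0.02. CD68, at 2.92 to 24.8, and CD14, at 4.16 to 15.7, were at 1 or more in every library. No other immune cell marker exceeded the 2.34 of CSF1R, so the immune sums below rest mostly on CD68 and CD14. Every other sum below is likewise weighted to the genes with the largest values. Examples are COL1A1, COL1A2 and VIM for fibroblast, ACTA2 and TAGLN for sheath, and VCAN and RSPO3 for papilla markers. A sum can therefore move while most genes of its list do not. In such bulk samples, fewer cells of a type and less RNA per cell cannot be told apart.

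**Figure D1:**
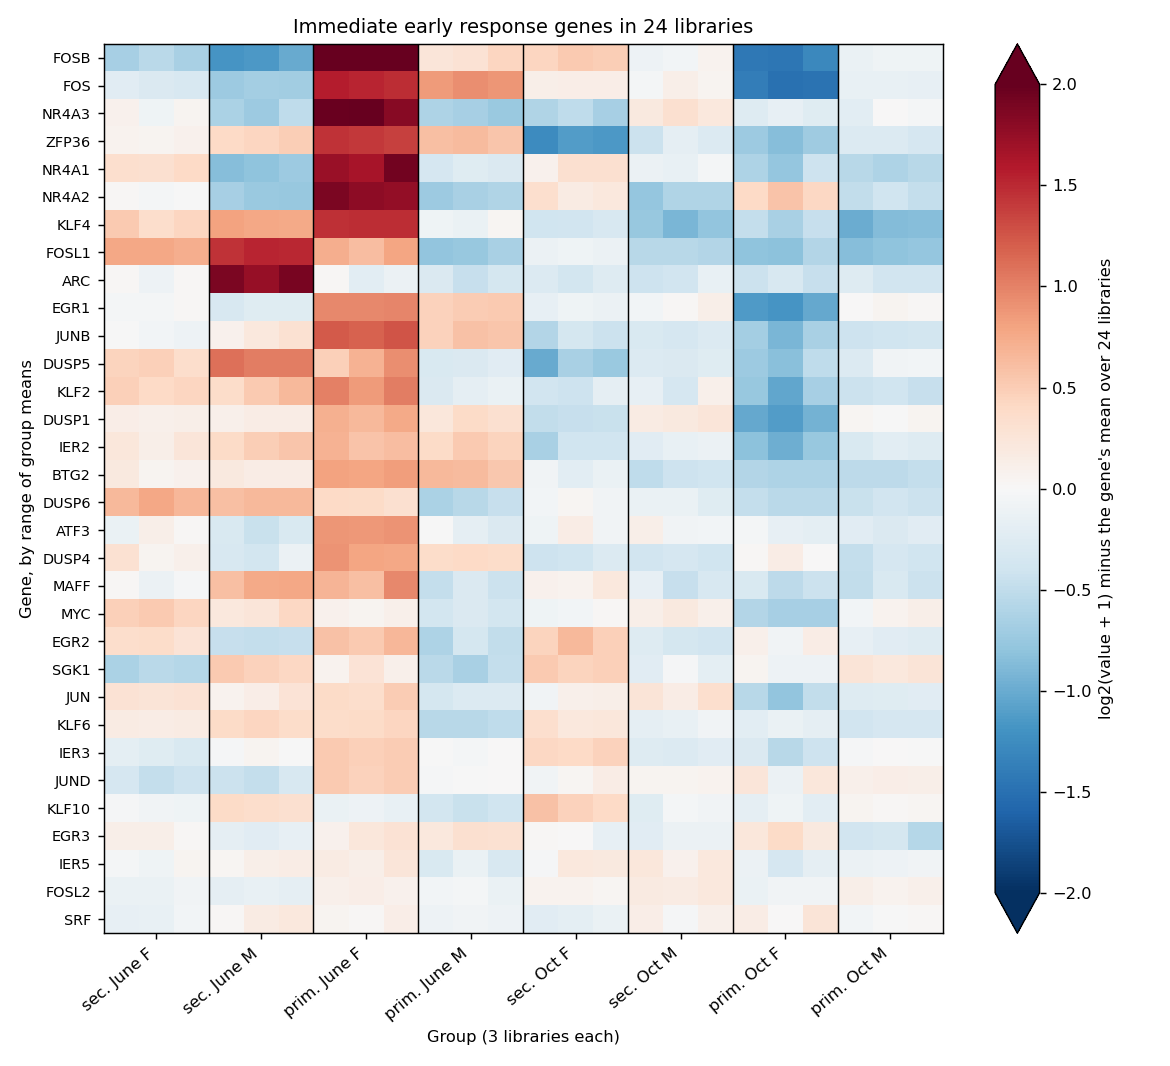
Heat map of the 32 genes (from top to bottom by the range of their group means) in the 24 libraries (columns, 3 for each group); the colour gives log2(value + 1) minus the gene's mean over the 24 libraries, with colours ending at 2 in either direction. Red fills most of the columns of primary follicle cells from June females and blue most of those from October females, while FOSL1, ARC and DUSP5 are reddest in secondary cells from June males.

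The highest levels of these genes were in primary papilla cells of June females. That group had the highest mean for 21 of the 32 genes, while it had the highest mean for 12.0% of all 13049 genes. For 18 of the 21, its 3 libraries lay above every other library. The lowest mean was most often that of primary cells of October females, for 13 of the 32 genes against 8.64% of all genes. For 10 of the 13, all 3 libraries lay below every other library. Such separation was counted for the list alone, so no share of all genes stands beside the 18 and the 10. Secondary cells of June males had the highest mean for 4 of the 32 genes, compared with 19.2% of all genes. Of these 4, 3 were other than ARC, whose highest group was fixed by the filter. Primary cells of June males had the highest mean for 1 gene, also compared with 19.2% of all genes. Secondary cells of June females and of October females had it for 2 each (9.68% and 16.0% of all genes), and primary cells of October males for 0 (8.48%). The median gene stood 0.70 above its mean over all libraries (log2 scale) in primary cells of June females and at -0.47 in those of October females, and the other 6 groups had medians between -0.24 and 0.15. Over the 8 group means, the median gene of the list spanned 1.33 on the log2 scale, compared with 0.55 for all genes tested.

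FOS (gene ID 102171520) and FOSB (gene ID 100860839) encode partners that pair with a JUN protein to form AP-1, and they spanned the widest ranges of the list. In June, the value of FOS was 397, 387 and 374 in primary females, 242, 256 and 246 in primary males, 114, 109.6 and 106 in secondary females and, in secondary males, 80.6, 82.8 and 81.9. In October it was 50.7, 46.9 and 47.6 in primary females, 121, 121 and 119.5 in primary males, 145, 146 and 146 in secondary females and, in secondary males, 129.9, 145 and 139. Primary cells of June females were highest and primary cells of June males next, with no overlap between them or with any other group, and primary cells of October females were below all others. In June, the value of FOSB was 180.1, 181 and 188 in primary females, 38.7, 39.8 and 43.9 in primary males, 20.2, 22.1 and 20.3 in secondary females and, in secondary males, 13.8, 14.1 and 15.6. In October it was 11.4, 11.2 and 12.7 in primary females, 29.7, 30.5 and 30.4 in primary males, 44.2, 47.1 and 46.0 in secondary females and, in secondary males, 30.4, 31.3 and 34.1. The groups of FOSB were ordered much as those of FOS at both ends, but here secondary cells of October females came next after primary cells of June females, just above primary cells of June males. Between the highest and the lowest group mean lay 7.84-fold for FOS and 14.4-fold for FOSB on the value + 1 scale.

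FOSL1 and FOSL2 are FOS relatives without the strong activation domain of FOS. FOSL1 (gene ID 102172040) followed another order. Its June value was 44.1, 40.6 and 46.1 in primary females, 14.8, 15.2 and 16.4 in primary males, 45.3, 45.6 and 43.9 in secondary females and, in secondary males, 73.1, 77.2 and 76.6. Its October value was 14.6, 14.4 and 17.1 in primary females, 14.1, 14.7 and 14.9 in primary males, 24.1, 24.8 and 24.0 in secondary females and, in secondary males, 17.5, 17.6 and 17.1. Secondary cells of June males were highest with no overlap, the females of both follicle types in June overlapped each other at the next level, and primary cells of June males overlapped primary cells of October males and females near the bottom. FOSL2 (gene ID 102171522) had one of the 3 narrowest ranges, 0.35 on the log2 scale. Its June value was 269, 275 and 268 in primary females, 242, 245 and 229.7 in primary males, 229, 230.2 and 239 in secondary females and, in secondary males, 223, 227 and 223. In October FOSL2 was at 228, 238 and 239 in primary females, 271, 265 and 271 in primary males, 264, 263 and 258 in secondary females and, in secondary males, 286, 283 and 290.3. Most groups of FOSL2 overlapped or nearly touched, with secondary cells of October males above all others.

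JUNB (gene ID 102181201) encodes the JUN relative that tempers JUN itself. Its June value was 427, 412 and 436 in primary females, 251, 273 and 269 in primary males, 180.1, 175 and 169.6 in secondary females and, in secondary males, 192, 211 and 224. The October value of JUNB was 113, 95.5 and 115 in primary females, 136, 138 and 140.4 in primary males, 120.4, 143 and 135 in secondary females and, in secondary males, 148, 144 and 150.3. The June groups of primary cells led, females above males, every June library lay above every October library, and the October primary females were lowest. JUN, the main DNA-binding partner of FOS, averaged 337 ± 18.6 (SD) in primary cells of June females and 166 ± 17.7 (SD) in those of October females, its highest and lowest groups. JUND, the most constantly expressed JUN gene, averaged 188 ± 4.12 (SD) in primary cells of June females and at most 145 ± 19.9 (SD) elsewhere, in primary cells of October females. ATF3, a stress-induced repressor, averaged 30.4 ± 0.321 (SD) in primary cells of June females and 12.4 ± 0.770 (SD) in secondary cells of June males, its highest and lowest groups. MAFF, a small MAF protein without an activation domain, averaged 40.1 ± 5.39 (SD) and 38.9 ± 2.67 (SD) in the same 2 groups, its highest.

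**Figure D2:**
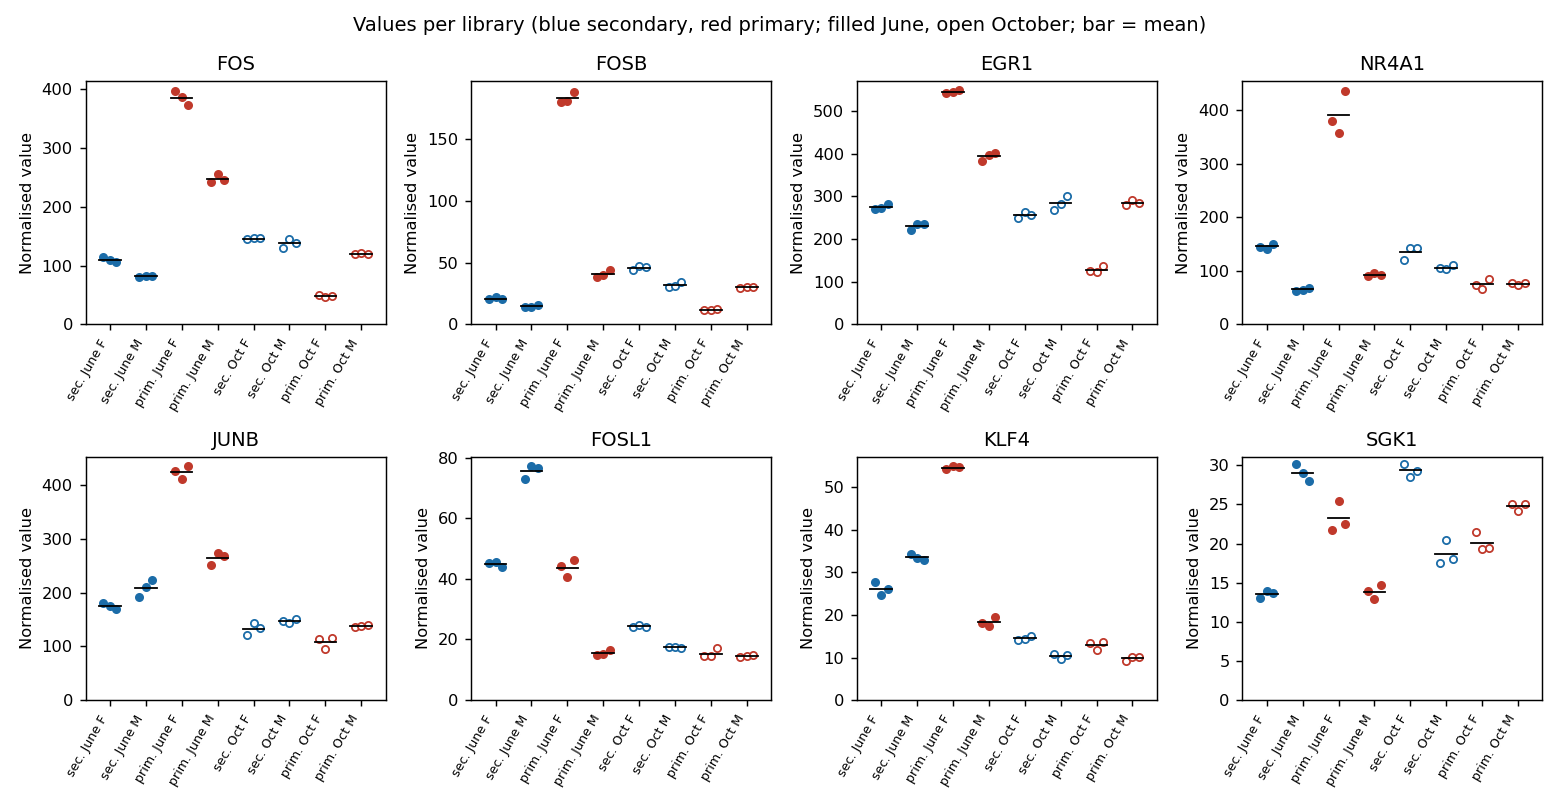
Normalised value (linear axis from 0, in the authors' unit) of FOS, FOSB, EGR1, NR4A1, JUNB, FOSL1, KLF4 and SGK1 in each library, with the 8 groups along the axis; points are libraries, filled for June and open for October, blue for secondary and red for primary cells, and bars are group means. The primary June female points lie apart at the top for 6 of the 8 genes, those of FOSL1 are topped by secondary June males, and those of SGK1 follow no such order.

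EGR1 (gene ID 102188309), a zinc finger activator and a textbook ERK target, had a June value of 542, 544 and 548 in primary females, 382, 396 and 402 in primary males, 269.9, 272 and 282 in secondary females and, in secondary males, 222, 234 and 235. EGR1 in October was at 126, 122 and 137 in primary females, 281, 291 and 283 in primary males, 249, 263 and 256 in secondary females and, in secondary males, 267, 282 and 301. Its order resembled that of FOS: primary cells of June females, then of June males, were above all others, and primary cells of October females were below all others. EGR2 and EGR3, its relatives, had narrower ranges over the groups (1.08 and 0.72 on the log2 scale, against 2.08 for EGR1). EGR2 averaged 20.3 ± 1.11 (SD) in primary cells of June females and 9.11 ± 0.897 (SD) in those of June males, its highest and lowest groups. EGR3 was highest in primary cells of June males at 4.05 ± 0.191 (SD) and lowest in those of October males at 2.07 ± 0.242 (SD).

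The 3 NR4A genes encode orphan nuclear receptors that are regulated mainly by their amount. NR4A1 (gene ID 102185438) had a June value of 380.4, 357 and 436 in primary females, 89.5, 96.6 and 92.6 in primary males, 145, 142 and 150.4 in secondary females and, in secondary males, 62.5, 65.0 and 68.4. Its October value was 74.2, 66.3 and 85.4 in primary females, 77.3, 73.6 and 77.0 in primary males, 121, 142 and 142 in secondary females and, in secondary males, 104, 103 and 111. Primary cells of June females stood far above the rest, and secondary cells of June males shared the lowest level with primary cells of October females. NR4A2 (gene ID 102169808) had a June value of 79.6, 75.0 and 72.8 in primary females, 12.2, 13.0 and 13.4 in primary males, 21.2, 20.3 and 20.7 in secondary females and, in secondary males, 12.9, 12.2 and 11.9. In October NR4A2 was at 27.8, 31.6 and 28.1 in primary females, 14.7, 15.6 and 14.8 in primary males, 26.6, 23.6 and 24.3 in secondary females and, in secondary males, 11.8, 13.5 and 13.5. In each follicle type and month the females lay above the males, without overlap. NR4A3 (gene ID 102188043) had a June value of 19.4, 19.5 and 17.2 in primary females, 2.36, 2.25 and 2.08 in primary males, 4.46, 3.86 and 4.34 in secondary females and, in secondary males, 2.34, 2.13 and 2.62. The October value of NR4A3 was 3.29, 3.62 and 3.36 in primary females, 3.43, 4.21 and 4.01 in primary males, 2.41, 2.61 and 2.25 in secondary females and, in secondary males, 4.87, 5.43 and 4.98. Its libraries outside primary cells of June females all lay between 2.08 and 5.43. Primary cells of June males, which came next after the females for FOS and EGR1, were among the lowest groups for NR4A2 and NR4A3.

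KLF4 (gene ID 102171875), a zinc finger factor of differentiation, had a June value of 54.3, 54.9 and 54.8 in primary females, 18.1, 17.4 and 19.6 in primary males, 27.8, 24.6 and 26.1 in secondary females and, in secondary males, 34.3, 33.4 and 32.9. KLF4 in October was at 13.4, 11.9 and 13.6 in primary females, 9.13, 10.1 and 10.2 in primary males, 14.2, 14.4 and 15.2 in secondary females and, in secondary males, 10.9, 9.64 and 10.7. Every June library lay above every October library, and primary cells of June females were highest. KLF2 shared that highest group at 54.9 ± 3.51 (SD), with its lowest mean of 15.3 ± 2.18 (SD) in primary cells of October females. KLF6 was equally high in secondary cells of June males at 103 ± 1.85 (SD) and in primary cells of June females at 103 ± 2.50 (SD), and lowest in primary cells of June males at 53.2 ± 0.990 (SD). KLF10, a target of TGF-beta, was highest in secondary cells of October females at 55.2 ± 3.55 (SD) and lowest in primary cells of June males at 29.4 ± 0.834 (SD).

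MYC, a growth factor-induced regulator of cell growth, was highest in secondary cells of June females at 65.0 ± 2.26 (SD) and lowest in primary cells of October females at 29.6 ± 0.941 (SD). SRF (gene ID 102173700), the factor that drives much of the response, had the narrowest range of the list, 0.32 on the log2 scale. Its June value was 32.3, 31.7 and 34.2 in primary females, 29.1, 29.7 and 28.9 in primary males, 27.8, 27.9 and 30.0 in secondary females and, in secondary males, 31.7, 35.1 and 36.3. Its October value was 34.8, 31.2 and 37.6 in primary females, 29.9, 31.2 and 31.7 in primary males, 26.6, 27.2 and 28.4 in secondary females and, in secondary males, 34.3, 30.6 and 33.4. Most SRF groups overlapped.

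ZFP36 (gene ID 102183627), the RNA-decay protein also called tristetraprolin, had a June value of 216, 213 and 205 in primary females, 119.6, 123 and 116 in primary males, 83.0, 82.1 and 84.1 in secondary females and, in secondary males, 104, 106 and 111. In October ZFP36 was at 47.2, 43.4 and 47.6 in primary females, 65.3, 65.2 and 62.1 in primary males, 32.5, 35.6 and 35.0 in secondary females and, in secondary males, 58.4, 69.4 and 64.8. Every June library was above every October library, primary cells of June females were highest, and secondary cells of October females were below all others. DUSP1, a nuclear phosphatase of p38, JNK and ERK, averaged 381 ± 13.4 (SD) in primary cells of June females, 289 ± 15.5 (SD) in those of June males and 114 ± 6.88 (SD) in those of October females, its lowest group. DUSP4, another nuclear phosphatase, averaged 10.1 ± 0.533 (SD) in primary cells of June females and 3.73 ± 0.230 (SD) in those of October males, its highest and lowest groups. DUSP5, a nuclear ERK phosphatase, was highest in secondary cells of June males at 18.1 ± 0.612 (SD), compared with 4.33 ± 0.680 (SD) in its lowest group, secondary cells of October females. DUSP6, the cytoplasmic ERK phosphatase, was highest in secondary cells of June females at 46.5 ± 2.18 (SD) and lowest in primary cells of June males at 19.1 ± 1.22 (SD).

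IER5 (gene ID 106503005), an activator of heat shock factor 1, had a narrow range. Its June value was 207, 201 and 218 in primary females, 149.8, 169 and 147 in primary males, 181, 175 and 192 in secondary females and, in secondary males, 189.8, 199.7 and 204. The October value of IER5 was 169.7, 147 and 164 in primary females, 171, 173 and 176 in primary males, 182, 213 and 213 in secondary females and, in secondary males, 217, 196 and 213. Most of its groups overlapped, and primary cells of June females lay above those of June males. IER2 and BTG2, an antiproliferative gene and p53 target, both had their highest means in primary cells of June females (44.6 ± 2.08 (SD) and 64.2 ± 0.785 (SD)) and their lowest in primary cells of October females (15.4 ± 1.26 (SD) and 23.4 ± 0.340 (SD)). IER3, a survival gene induced by NF-kappaB, averaged 790.0 ± 10.1 (SD) in its highest group, primary cells of June females, and 418 ± 38.2 (SD) in its lowest, primary cells of October females.

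SGK1, a kinase induced by serum and glucocorticoid, did not follow FOS. Its June value was 21.8, 25.4 and 22.4 in primary females, 14.0, 12.9 and 14.7 in primary males, 13.0, 13.9 and 13.6 in secondary females and, in secondary males, 30.2, 29.0 and 28.0. SGK1 in October was at 21.5, 19.4 and 19.4 in primary females, 25.1, 24.2 and 25.0 in primary males, 30.2, 28.6 and 29.2 in secondary females and, in secondary males, 17.6, 20.5 and 18.1. Secondary cells of October females and of June males overlapped at the top, and secondary cells of June females and primary cells of June males overlapped at the bottom. ARC, a cytoskeletal gene best known from neurons, was 4.05, 3.59 and 4.12 in secondary cells of June males and at most 0.4 in every other library. Because ARC passed the filter through those 3 libraries alone, its difference there was fixed by the filter and is given as a description. ARC is among the genes called in 11 of the 19 comparisons below, and without it the count in its direction is lower by 1.

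Follicle types were compared within each month and sex. Some of the marker sums that moved with a comparison are given beside it here and below, and others moved as well. The part of the marker changes in a comparison was not tested. In June females, 25 of the 32 genes were lower in secondary than in primary cells and 2 were higher, whereas over all genes 24.3% were called lower and 25% higher (limma, adjusted p under 0.05). The median difference was -0.63 for the list and 0.0027 for all genes. FOSB, NR4A3 and NR4A2 fell the most, with differences of -3.07 ± 0.059 (SE), -1.92 ± 0.078 and -1.82 ± 0.061 and adjusted p-values of 1.58e-20, 3.3e-15 and 1.37e-16 (limma with Benjamini-Hochberg adjustment, as throughout). The 2 genes that rose were MYC, by 0.40 ± 0.055, and DUSP6, by 0.33 ± 0.051. The difference of FOSL1 was 0.05 ± 0.057, with an adjusted p of 0.538. Of 8 fibroblast markers 5 were lower and 2 higher in the secondary cells (median -0.46), with sums of 24520 to 25510 against 30020 to 32180 in primary cells. Keratinocyte markers summed to 24.5 to 25.8 in secondary and 9.78 to 11.0 in primary cells, with 1 of 10 tested higher and 1 lower. Their median difference was -0.01, so the sum does not describe the list as a whole. Papilla markers summed to 746 to 761 in secondary and 827 to 879 in primary cells, with 7 of 15 tested lower and 5 higher.

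In June males the list split: 14 genes were higher in secondary cells and 13 lower (30.7% and 28.9% of all genes), and the median difference was 0.03. Without ARC, 13 were higher and 13 lower. FOSL1 rose by 2.22 ± 0.057 (SE; adjusted p = 4.32e-19) and DUSP5 by 1.32 ± 0.10 (adjusted p = 1.06e-10), while ARC, whose difference the filter fixed, differed by 2.21 ± 0.089. FOS fell by 1.59 ± 0.042, FOSB by 1.43 ± 0.059 and EGR1 by 0.77 ± 0.045 (adjusted p = 7.43e-19, 2.12e-15 and 1.03e-12). With every library scaled to a common total, the split was 15 higher and 9 lower. Among the AP-1 genes of June males, secondary cells thus had more FOSL1 and less FOS and FOSB than primary cells, and all 3 differences exceeded the spread between libraries. Sheath and smooth muscle markers were lower for 7 of 9 and higher for 1, with sums of 10570 to 11810 in secondary and 18090 to 18700 in primary cells. Papilla markers were lower for 10 of 15 and higher for 2, with sums of 600 to 612 against 750 to 784. Keratinocyte markers were lower for 7 of 10 and higher for 3 (39.8 to 41.6 against 59.6 to 66.1). Fibroblast markers were lower for 4 of 8 and higher for 4 (20070 to 21160 against 26170 to 27760). Immune cell markers were higher for 3 of 3 tested (34.5 to 41.3 against 16.0 to 19.3).

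In October females the direction was the reverse of June: 22 genes were higher in secondary cells and 6 lower, compared with 18.3% and 17.2% of all genes, and the median difference was 0.45. FOSB rose by 1.87 ± 0.059 (SE), FOS by 1.57 ± 0.042 and EGR1 by 0.99 ± 0.045 (adjusted p = 5.17e-17, 2.73e-18 and 3.02e-14). DUSP4 fell by 0.42 ± 0.076, ZFP36 by 0.41 ± 0.053 and NR4A3 by 0.37 ± 0.078. Of 12 keratinocyte markers 10 passed the filter, and KRT1 and TP63 were below 1 in every library. The summed level of the 12 was 301 to 327 in secondary cells of October females and 40.8 to 45.9 in primary cells, and mitochondrial transcripts made up 11.2% to 12.7% of the total in those secondary cells and 8.72% to 10.8% elsewhere. Fibroblast markers were higher for 5 of 8 and lower for 1 in the secondary cells, and sheath and smooth muscle markers were lower for 6 of 9 and higher for 2. In October males the follicle types were closest: 12 genes were higher in secondary cells and 3 lower (10.9% and 7.63% of all genes), with a median difference of 0.09. JUN rose by 0.49 ± 0.068, NR4A1 by 0.48 ± 0.078 and NR4A3 by 0.32 ± 0.078. SGK1 fell by 0.39 ± 0.065, IER3 by 0.24 ± 0.047 and NR4A2 by 0.20 ± 0.061. FOSB differed by 0.08 ± 0.059 and EGR1 by -0.01 ± 0.045 in October males, with adjusted p-values of 0.414 and 0.912. Scaled to a common total, the October males gave 8 higher and 4 lower genes. Keratinocyte markers summed to 47.1 to 55.2 in secondary and 76.8 to 83.7 in primary cells of October males, with 4 of 10 lower and 1 higher.

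**Figure D3:**
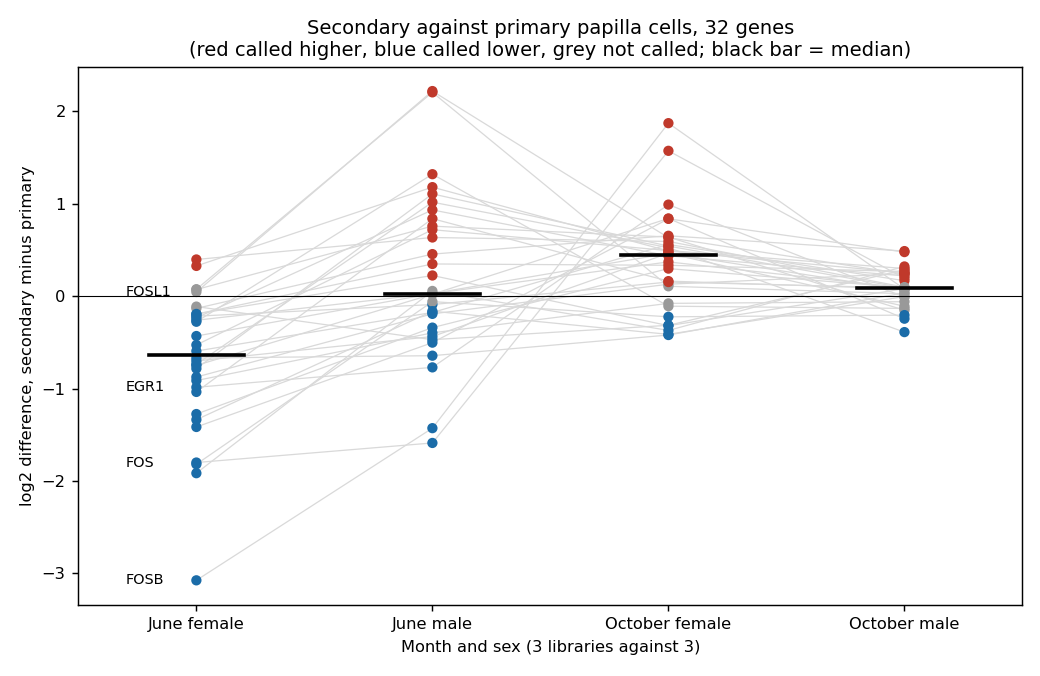
Log2 difference of secondary minus primary cells (vertical axis) for the 32 genes in June females, June males, October females and October males (horizontal axis, 3 libraries against 3); red points were called higher, blue points called lower, grey points not called, and black bars are medians. The medians are -0.63, 0.03, 0.45 and 0.09 in that order, and FOSB is the lowest point in June females.

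The months were compared next. The 4 comparisons of months use the same groups as those of follicle types, so that a high or low group enters several of them. In primary cells of females, 29 of the 32 genes were lower in October than in June and 0 were higher, compared with 25.6% and 22.7% of all genes, and the median difference was -1.09 against -0.0027 for all genes. For 18 of them the fall was at least 2-fold on the value + 1 scale, and the share of all genes with such a fall was not computed. FOSB fell by 3.85 ± 0.059 on the log2 scale, FOS by 2.97 ± 0.042 and NR4A1 by 2.36 ± 0.078 (adjusted p = 1.23e-22, 4.78e-23 and 1.22e-16). The 3 genes that did not pass the test were EGR3 (0.07, adjusted p = 0.459), KLF10 (-0.03, adjusted p = 0.645), SRF (0.07, adjusted p = 0.359). Between the same groups keratinocyte markers rose for 9 of 10 and fell for 1, from a sum of 9.78 to 11.0 in June to 40.8 to 45.9 in October. Fibroblast markers fell for 6 of 8 and rose for 1 (median -0.36), from 30020 to 32180 in June to 23870 to 25790 in October, and 3 of 3 immune and 3 of 3 pericyte markers tested fell.

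In primary cells of males, 10 genes were higher in October and 12 lower, with a median difference of -0.01. These are 31.2% and 37.5% of the list, not far from the 26% and 29.5% of all genes. SGK1 rose by 0.79 ± 0.065 (SE), NR4A3 by 0.59 ± 0.078 and KLF10 by 0.44 ± 0.053. BTG2 fell by 1.11 ± 0.047, FOS by 1.04 ± 0.042 and JUNB by 0.93 ± 0.066 (adjusted p = 4.46e-15, 2.56e-15 and 4.29e-11). FOS and JUNB thus fell from June to October in primary cells of both sexes, while NR4A3 fell in females and rose in males. Sheath and smooth muscle markers fell for 7 of 9 and rose for 1 in primary males (median -0.44), from a sum of 18090 to 18700 in June to 12550 to 12910 in October, and 3 of 3 pericyte markers tested fell.

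In secondary cells of females, 10 genes were higher in October and 15 lower (24.2% and 27.1% of all genes; median difference -0.12). FOSB rose by 1.10 ± 0.059, SGK1 by 1.06 ± 0.065 and IER3 by 0.67 ± 0.047. ZFP36 fell by 1.25 ± 0.053, DUSP5 by 1.22 ± 0.10 and FOSL1 by 0.86 ± 0.057. In the same cells keratinocyte markers rose for 9 of 10 and fell for 1 (median 2.08), from a sum of 24.5 to 25.8 in June to 301 to 327 in October, fibroblast markers rose for 6 of 8 and fell for 1, and the mitochondrial share was 8.89% to 9.45% in June and 11.2% to 12.7% in October. In secondary cells of males, 8 genes were higher in October and 16 lower (25.3% and 31.2% of all genes; median difference -0.13). There FOSB rose by 1.09 ± 0.059, NR4A3 by 0.86 ± 0.078 and FOS by 0.75 ± 0.042, whereas FOSL1 fell by 2.06 ± 0.057, KLF4 fell by 1.60 ± 0.061 and ARC differed by -2.16 ± 0.089. Immune cell markers summed to 34.5 to 41.3 in June and 11.0 to 12.2 in October in those cells, where 3 of 3 tested fell, and fibroblast markers summed to 20070 to 21160 in June and 28970 to 30110 in October. FOSB therefore rose from June to October in secondary cells of both sexes and fell in primary cells of both sexes (primary males, -0.42 ± 0.059; adjusted p = 2.76e-06), and ZFP36 and KLF4 fell in all 4 comparisons. ZFP36 fell by 2.17 ± 0.053 in primary females, 0.89 ± 0.053 in primary males and 0.73 ± 0.053 in secondary males.

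Males and females were compared within follicle type and month. In primary cells in June, 31 of the 32 genes were lower in males and 0 higher, compared with 22.3% and 23.1% of all genes, and the median difference was -0.69. NR4A3 fell by 2.61 ± 0.078, NR4A2 by 2.47 ± 0.061 and FOSB by 2.14 ± 0.059 (adjusted p = 9.19e-18, 3.43e-19 and 2.34e-18). FOS and EGR1 fell less, by 0.64 ± 0.042 and 0.47 ± 0.045. EGR3 was the gene that did not pass, at 0.09 ± 0.077 (adjusted p = 0.388). Keratinocyte markers summed to 9.78 to 11.0 in primary cells of June females and to 59.6 to 66.1 in those of June males. The 9 sheath and smooth muscle markers, all at 1 or more in every library, summed to 18090 to 18700 in June males, above the 10570 to 15160 of all other groups, and to 12290 to 13930 in June females.

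In primary cells in October the direction turned: 15 genes were higher in males and 6 lower (15.8% and 17.8% of all genes; median difference 0.13). FOS rose by 1.30 ± 0.042, FOSB by 1.29 ± 0.059 and EGR1 by 1.14 ± 0.045 (adjusted p = 1.18e-16, 4.22e-14 and 2.92e-15). NR4A2 fell by 0.91 ± 0.061, EGR3 by 0.71 ± 0.077 and DUSP4 by 0.47 ± 0.076. Keratinocyte markers were higher in males for 6 of 10 and lower for 0, with sums of 76.8 to 83.7 against 40.8 to 45.9.

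In secondary cells the sexes differed in both directions. In June 13 genes were higher in males and 11 lower (20.9% and 18.6% of all genes; median difference 0.04). SGK1 rose by 1.05 ± 0.065 and MAFF by 0.74 ± 0.088, ARC differed by 1.86 ± 0.089, and NR4A1, EGR2 and NR4A2 fell by 1.15 ± 0.078, 0.79 ± 0.070 and 0.71 ± 0.061. Immune cell markers summed to 34.5 to 41.3 in males and 20.9 to 22.4 in females there. Papilla markers summed to 600 to 612 in those males and 746 to 761 in those females, with 8 of 15 tested lower and 2 higher. In October 10 were higher in males and 13 lower (19.5% and 20.9% of all genes; median difference -0.02), and with a common total 6 and 14. ZFP36 rose by 0.88 ± 0.053, NR4A3 by 0.83 ± 0.078 and DUSP1 by 0.67 ± 0.044, whereas NR4A2, EGR2 and IER3 fell by 0.89 ± 0.061, 0.85 ± 0.070 and 0.68 ± 0.047. Keratinocyte markers were lower in males for 8 of 10 and higher for 1 (median -1.59), with sums of 47.1 to 55.2 against 301 to 327, and the mitochondrial share was 9.55% to 10.3% in males and 11.2% to 12.7% in females. NR4A2 was lower in males in all 4 comparisons of the sexes. These use separate libraries, but the labels do not say whether the libraries came from separate animals. The 4 comparisons are therefore not known to be independent, and sex cannot be told apart from animal or handling.

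**Figure D4:**
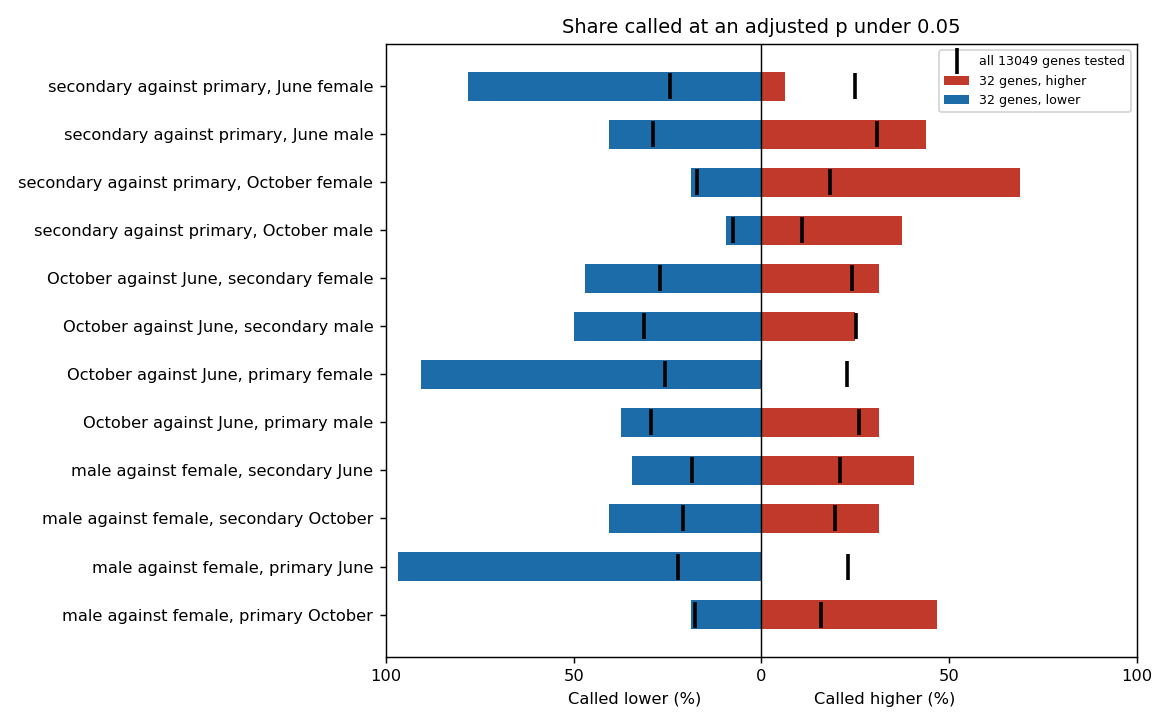
Share of the 32 genes (bars) and of all 13049 genes tested (vertical ticks) called lower (blue, to the left) and higher (red, to the right) in each comparison of 2 groups, in percent. The bars pass the ticks by the most for October against June in primary females (lower) and for males against females in primary cells in June (lower).

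Differences between such differences were tested as interactions. In females, the difference of secondary minus primary cells was larger in October than in June for 25 of the 32 genes and smaller for 0 (20.7% and 19.5% of all genes), with a median of 0.88. FOSB led with 4.95 ± 0.084 (SE; adjusted p = 1.94e-21), followed by FOS with 3.37 ± 0.060 and NR4A1 with 2.25 ± 0.11. In males the same interaction was positive for 12 genes and negative for 12 (21.6% and 22.3% of all genes), with FOS at 1.78 ± 0.060 and FOSL1 at -1.98 ± 0.081. With a common total the split in males was 9 and 16. That scaling moved the median of all genes by -0.17 in this interaction, and neither FOS nor FOSL1 changed sign under it. The 3-way interaction, the male minus the female value, was negative for 29 genes and positive for 2 (18.1% and 17.3% of all genes). It was -3.44 ± 0.12 for FOSB, -2.67 ± 0.13 for SGK1 and -2.57 ± 0.11 for FOSL1.

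The interactions of sex that include primary cells of June females draw on that group's libraries again. The secondary minus primary difference in June was larger in males than in females for 30 genes and smaller for 1 (20.9% and 20.4% of all genes). In October it was larger for 5 and smaller for 16 (13.7% and 13% of all genes). The October minus June difference in primary cells was larger in males for 29 genes and smaller for 1 (17.7% and 19.1% of all genes). In secondary cells it was larger for 11 and smaller for 9 (17.3% and 20.4% of all genes), and with a common total for 8 and 11.

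Genes outside the list that belong to the same pathway were read in the same comparisons. Of 30 other early and delayed response genes tested, 18 were lower and 6 higher in secondary than in primary cells of June females, with a median of -0.41, compared with 24.3% and 25% of all genes. Between October and June in primary females, 26 were lower and 1 higher (median -0.73; 25.6% and 22.7% of all genes). NFKBIA, the NF-kappaB inhibitor that NF-kappaB itself induces, averaged 105 ± 3.08 (SD) in primary cells of June females, compared with 11.7 ± 0.949 (SD) in secondary cells of June females, 13.1 ± 0.977 (SD) in primary cells of October females and 13.1 ± 0.608 (SD) in those of June males. Its differences were -3.07 ± 0.065, -2.91 ± 0.065 and -2.92 ± 0.065 (adjusted p = 5.61e-20, 1.11e-19 and 4.57e-20). PTGS2, the inducible prostaglandin synthase, fell by 2.16 ± 0.060 in secondary against primary cells of June females, where BHLHE40 and NFIL3, repressors of the clock, fell by 1.32 ± 0.041 and 0.80 ± 0.037. CSRNP1 fell by 2.10 ± 0.083 between June and October in primary females and by 2.03 ± 0.083 in males against females in primary cells in June.

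In October females, 23 of those 30 genes were higher in secondary cells and 3 lower (median 0.51; 18.3% and 17.2% of all genes), with SOCS3, a brake on cytokine signalling, up by 1.46 ± 0.094 and TRIB1 up by 1.24 ± 0.054. In June males 13 were higher and 7 lower (median 0.08; 30.7% and 28.9% of all genes), and there the cytokine IL6, at 78.8 ± 5.10 (SD) in secondary and 5.65 ± 0.802 (SD) in primary cells, rose by 3.59 ± 0.15 and PLAUR, the urokinase receptor, by 1.26 ± 0.050 in secondary cells. Heat shock genes also stood out in secondary cells of June males: 9 of 10 tested were higher than in primary cells and 0 lower (30.7% and 28.9% of all genes), with HSPA6, whose reads can be shared with close paralogs, up by 4.51 ± 0.10. Their summed level there was 4221 to 4406, compared with 2954 to 3570 in the other libraries, and immune cell markers summed to 34.5 to 41.3 in that group and to 10.7 to 25.3 elsewhere. In primary cells of June females, where most of the 32 genes were highest, the heat shock sum was 3187 to 3338, within the range of the other groups. The part of heat shock genes and immune markers in the FOSL1, DUSP5 and ARC levels of secondary cells of June males was not tested.

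The messenger RNAs of the kinases and CREB factors that switch the response on had medians near 0, with members called in both directions. The median difference over 13 ERK cascade kinases lay between -0.10 and 0.05 in the comparisons of 2 groups, that over 8 stress kinases between -0.08 and 0.10, and that over 7 CREB genes and coactivators between -0.12 and 0.12. In secondary against primary cells of June females, 6 of the 13 ERK cascade kinases were lower and 2 higher (24.3% and 25% of all genes), and their summed level was 618 to 636 in primary cells of June females, 616 to 628 in those of June males and at most 610.3 in the other groups. Between October and June in primary females, where 25.6% of all genes were lower and 22.7% higher, 4 of the 13 were lower and 0 higher. Of 5 SRF, ELK and MRTF regulators tested, 3 were lower and 0 higher in that comparison (median -0.19), and 4 were lower and 0 higher in October in secondary males (median -0.45; 31.2% and 25.3% of all genes). Of 9 other AP-1 partners, 5 were lower and 0 higher between October and June in primary females (median -0.32). Of 16 further ERK feedback genes, 6 were lower and 1 higher there (median -0.15), with PHLDA1 down by 1.57 ± 0.053, ERRFI1, an EGFR inhibitor, down by 1.06 ± 0.042, SPRY2 down by 0.97 ± 0.067, and ETV4, an ERK-driven transcription factor, up by 1.15 ± 0.082. In secondary males 11 of the 16 were lower in October and 3 higher (median -0.55; 31.2% and 25.3% of all genes). In males against females in primary cells in June, 10 of the 16 were lower and 1 higher (median -0.36; 22.3% and 23.1% of all genes). The ERK feedback genes summed to 436 to 446 in primary cells of June females and to at most 336 in the other groups. The other AP-1 partners summed to 291 to 294 in that group and to at most 267 elsewhere.

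SRF with MRTF drives cytoskeletal genes as well, and those did not follow the list. Between October and June in primary females, 4 of 15 such genes were higher and 4 lower (median 0.03; 22.7% and 25.6% of all genes), with CNN1, a contractile protein, at 0.69 ± 0.084. In males against females in primary cells in June, where 31 of the 32 early genes fell, 8 were higher and 2 lower (median 0.14; 23.1% and 22.3% of all genes), with TPM2 at 0.79 ± 0.051 and CNN1 at 0.91 ± 0.084. Of 8 glucocorticoid response genes, 5 were lower and 1 higher between October and June in primary females (median -0.56; 25.6% and 22.7% of all genes), with CRISPLD2 down by 0.91 ± 0.035. The glucocorticoid response genes summed to 561 to 573 in primary cells of June females and to at most 498 in the other groups.

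**Figure D5:**
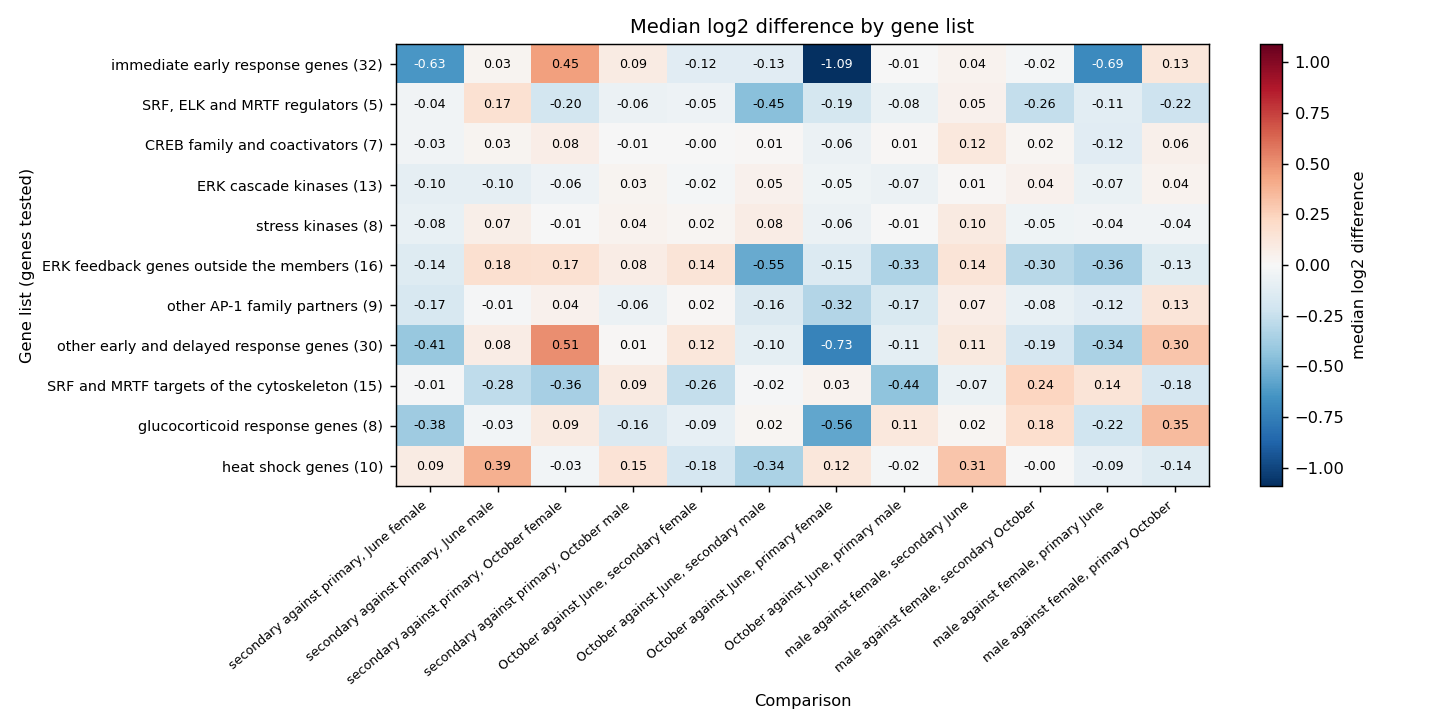
Median log2 difference (colour and printed value) of the 32 genes and of 10 related gene lists (rows, with the number of genes tested) in each comparison of 2 groups (columns). The other early and delayed response genes have medians of the same sign as the 32 genes in primary June female comparisons, and the kinase and CREB lists stay within 0.12 of 0.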

How the data were processed

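The 24 deposited tables hold 1 normalised expression signal per gene with 2 decimals. They are not counts: the authors' values sum to 959766 to 1045876 per library, so that the depth is unknown and no counting interval or floor is given. Per the submitters' processing notes kallisto 0.46.1 and sleuth 0.30.0 were used, with no role stated. Per the labels' protocols RNAiso Plus served for RNA extraction and an NEBNext Ultra kit for the libraries. No genome build, transcript set or normalisation factor is given in the sources used here. Gene IDs (20294 of 20326) matched the ARS1.2 reference table, used for names only.

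Genes at 1 or more in at least 3 libraries were set to log2(value + 1) and fitted with limma 3.58.1 (R 4.3.3, statmod 1.5.0), which was tested on simulated data: 1 mean per group, all 24 libraries sharing 1 spread, a variance trend and robust estimation. A gene was called at a Benjamini-Hochberg adjusted p under 0.05 over 13049 genes within each of 19 comparisons. Groups come from the labels, which name no batch. Named were the 10 genes with the widest range of group means among those with a group mean of at least 5, the 3 with the narrowest, up to 3 called rises and falls per comparison, and up to 4 called genes per other list by p; SGK1, ARC and the group means of the other genes complete the list, and FOSL1, EGR1, FOS, FOSB, ZFP36 and JUNB recur for comparison. Genes and lists were chosen with earlier results of these data known. Other filters, pseudocounts, scalings, fits and thresholds, a replicate block and leaving out each library were tried.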

Additional observations from a re-analysis of the deposited data

Results flagged for a closer look

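Each result here is a difference that itself differed between groups, by limma's interaction term with adjustment over all genes tested, and values are on the log2 scale. The shares of all genes called in the same comparisons are given with the interactions above. Groups of 3 libraries are too small to test for a library far from the others.

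The difference of secondary minus primary cells changed between June and October for 25 genes in females, with FOSB at 4.95, FOS at 3.37 and NR4A1 at 2.25, and for 24 genes in males, with FOS at 1.78, FOSB at 1.5, NR4A1 at 0.98, FOSL1 at -1.98 and DUSP5 at -1.45. It changed between females and males for 31 genes in June, with FOSL1 at 2.17, NR4A3 at 1.97 and EGR3 at -0.36. In October it did so for 21 genes, with NR4A3 at 0.69, EGR3 at 0.60, DUSP4 at 0.46, FOSB at -1.80, FOS at -1.38 and IER3 at -1.08.

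The difference of October minus June changed between females and males for 20 genes in secondary cells, with NR4A3 at 1.47, NR4A1 at 0.81, DUSP1 at 0.65, SGK1 at -1.67 and FOSL1 at -1.20. In primary cells it did so for 30 genes, with FOSB at 3.43, NR4A3 at 2.75, NR4A1 at 2.08 and EGR3 at -0.80. The 3-way term passed for 31 genes, with EGR3 at 0.96, DUSP4 at 0.43, FOSB at -3.44, SGK1 at -2.67 and FOSL1 at -2.57. ARC, which passed the filter through secondary cells of June males alone, stood at -2.18 for follicle type by month in males, 2.13 for follicle type by sex in June and -1.88 for month by sex in secondary cells. The counts above include it, except those for follicle type by month in females and follicle type by sex in October.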

How the results depend on the processing

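The alternatives changed the filter, pseudocount, scaling, variance model, libraries in the fit or libraries kept, and the count of called genes stayed within 1.5 times its value in all 19 comparisons under each of them. Of 608 differences (32 genes in 19 comparisons) 478 were called, 53 of these were lost under at least 1 alternative, the largest of size 0.44, and 30 were gained. ARC left the fit under the filter of at least 6 libraries and whenever a library of secondary June males was left out. Its calls were not counted as lost there. The change of sign was 1: FOSL2 in secondary against primary cells of June males, 2e-04 with a common total. Scaling to a common total lost 20 calls and gained 18, and it moved the median of all genes by over 0.1 in 3 interactions (-0.167, -0.164 and -0.122). Without 1 library, counts in comparisons of follicle type were 24 to 27 (June females and June males), 27 to 28 (October females) and 11 to 16 (October males). The list had its highest mean in primary cells of June females for 19 to 22 genes and its lowest in those of October females for 12 to 14 under alternatives chosen after the data were seen.

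Requiring a difference of at least 1 as well left, for secondary against primary cells, 8 genes in June females, 8 in June males, 2 in October females and 0 in October males. For October against June it left 4 in secondary females, 6 in secondary males, 18 in primary females and 2 in primary males. For males against females it left 3 in secondary cells in June, 0 in secondary cells in October, 10 in primary cells in June and 4 in primary cells in October. In the interactions it left 15 (type by month, females), 7 (males), 12 (type by sex, June), 4 (October), 6 (month by sex, secondary), 17 (primary) and 18 (3-way). The share of all genes passing both conditions was not computed, so these counts cannot be set against it.

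Deviations of libraries of different groups with the same replicate number in the labels correlated at -0.281 to 0.348 (median 0.034). Those with different numbers correlated at -0.405 to 0.512 (median -0.017). The correlation was over 0.1 for 25 of 84 same-numbered pairs and for 33 of 168 other pairs. Of the 24 libraries, 11 correlated best with their own replicate number. Whether primary and secondary cells with the same number came from the same animal was not tested. With the number as a block, 1 call was lost and 4 were gained, and 27, 27, 28 and 15 genes were called for follicle type in June females, June males, October females and October males. Depth limits could not be set, since the reads behind a value are unknown.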
